A study of Mus musculus with 36 samples.

Results

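The interleukin-1 system and the inflammasome were described through 10 mouse genes chosen by name: the cytokine genes Il1b, Il1a and Il18, the receptor antagonist gene Il1rn, the receptor genes Il1r2 and Il1rap, and the inflammasome genes Nlrp3, Pycard, Casp1 and Gsdmd. They were chosen with earlier results of these data known. For each gene the RefSeq transcript with the highest total count was kept. All 10 had a row among the 16812 genes of the count table, which include rows without a symbol. All 10 passed the filter on low counts that left 11953 genes for testing.

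The RNA came from the peripheral blood of Townes mice, a model of sickle cell disease whose own globin genes were exchanged for human ones. All groups shared that background, and each mouse received either MIR29B, a cholesterol-modified form of the microRNA miR-29b according to the series title, or a scrambled control. Both were delivered by mini-osmotic pump. The 36 libraries form 12 groups of 3, made up of the MIR29B and scrambled arms, doses of 2 and 3 mg/kg, and samples labelled weeks 0, 2 and 4. No group without an agent was among them, so week and time under pump and dosing cannot be told apart. The labels do not say whether the libraries of different weeks came from the same animals or whether week 0 blood was drawn before the first dose. The p-values therefore measure the spread between these libraries, part of which may be technical.

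Interleukin-1 alpha and beta are cytokines that start fever, the release of neutrophils from bone marrow and the expression of further inflammatory genes. They bind a receptor that needs the accessory chain encoded by Il1rap to signal. The product of Il1rn occupies that receptor without signalling, and the product of Il1r2 is a decoy that binds interleukin-1 and transmits nothing. Interleukin-1 beta and interleukin-18 are made as inactive precursors. The inflammasome is the complex that activates them: the sensor NLRP3 recruits the adaptor ASC (Pycard), which gathers caspase-1 (Casp1), and caspase-1 cleaves both precursors and the pore-forming protein gasdermin D (Gsdmd). In blood, neutrophils and monocytes are the main carriers of these transcripts.

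The sequences shown first are those of the microRNA and of its possible pairing sites in the members. A microRNA pairs with its targets through its seed, bases 2 to 8, which is in capitals in the mature mouse sequence from RefSeq (build GRCm38.p6, made from chr1:195037091-195037113 and chr6:31063025-31063047); the labels do not give the sequence of the agent that was infused.
mmu-miR-29b-3p: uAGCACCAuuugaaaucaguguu
In the longest annotated 3′ untranslated region of each gene (GENCODE, GRCm38), the letters searched were TGGTGCTA, which pairs with the whole seed and ends in an added A, and the shorter TGGTGCT and GGTGCTA. Of the 10 members, 1 held any of them. That was Il1rap, which held TGGTGCTA once, at chr16:26715853-26715860 on the plus strand, 785 bases into a region of 2676 bases. The site is in capitals in its surrounding sequence.
Il1rap site: ggaagctttaaTGGTGCTAatggagagtga
Among 21020 genes with such a region, 2.85% held TGGTGCTA and 16% held any of the 3 forms. A match describes letters and does not show that the site is used.

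Promoter windows of 300 bases (250 before to 50 after the start site, RefSeq, GRCm38.p6) were found for 9 of the 10 members and searched on both strands for the TATA box TATAAA, the AP-1 motif TGANTCA, the PU.1 motif AGGAAGT, the C/EBP motif TTGCNNAA and the NF-kappa-B motif. They are shown because 6 members passed the test of at least 1 later week against week 0. Some members had several start sites, so the 9 members had 12 windows. Of those 6, 4 had a match to at least 1 of the 5 motifs in any window. The first window with a match is printed, with 30 bases on either side and the motif in capitals.
Il1b, TATA box, chr2:129371135-129371200, minus strand: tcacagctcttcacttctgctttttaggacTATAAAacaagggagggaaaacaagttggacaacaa
Il1a, TATA box and AP-1, chr2:129309948-129310034, minus strand: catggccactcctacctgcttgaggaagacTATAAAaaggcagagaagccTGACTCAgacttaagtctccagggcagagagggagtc
Il1rn, AP-1, chr2:24336689-24336755, plus strand: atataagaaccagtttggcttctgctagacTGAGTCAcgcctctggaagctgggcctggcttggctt
Nlrp3, NF-kappa-B, chr11:59541353-59541422, plus strand: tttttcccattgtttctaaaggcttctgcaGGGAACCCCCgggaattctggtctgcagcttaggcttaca
Il1rn and Il18 also held TATAAA, and Pycard the PU.1 and C/EBP motifs. The windows of Il1r2, Il1rap and Casp1 held none of the 5 motifs. Of all 32851 windows, 13.6% held TATAAA, 7.81% the AP-1 motif, 9.35% the PU.1 motif, 10.8% the C/EBP motif and 8.46% the NF-kappa-B motif. Such shares are per window and motif, and the share of genes with any of the 5 was not computed. No motif was shared by all 6 of those members.

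Total counts ranged from 10695984 to 45654822 per library. Levels are given as CPM, the count of a gene scaled to a common library total, after scaling by the trimmed mean of M-values (TMM). Rows of ribosomal RNA genes and the rows without a symbol together took 1.482% to 15.14% of the counts. This share is called ribosomal RNA below, although the rows without a symbol were not shown to be ribosomal. Those rows alone held 1.045% to 10.07% of the counts. The share was above 5% in 3 libraries: replicate 1 of week 0 scrambled at 2 mg/kg, and replicates 2 and 3 of week 2 MIR29B at 2 mg/kg. The labels name the cells as erythrocytes. Erythroid marker transcripts summed to between 8.926e+04 and 2.114e+05 CPM, and markers of neutrophils, monocytes, lymphocytes and platelets were present in every library as well. In bulk blood RNA, fewer cells of a type and less RNA per cell cannot be told apart.

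Per kilobase of transcript and averaged over 36 libraries, Il1b was the highest member at 104.0 CPM per kb, and Il1r2 followed at 14.6. Nlrp3 (3.98), Gsdmd (3.31), Pycard (3.01), Casp1 (2.75), Il1rn (2.73) and Il1rap (1.8 CPM per kb) lay close together. Il18 (0.379) and Il1a (0.0729 CPM per kb) were near the limit of detection. At week 0 the order differed, with Il1r2 at 2.11 CPM per kb, below Casp1 (3.23), Gsdmd (3.17) and Pycard (2.62). The length used for Pycard was 2135 bases, the part within its RefSeq bounds, where the GENCODE transcript has 3800. Its value per kb and its place in the order depend on that choice. Il1r2 reached 15.8 and 25.9 CPM per kb at weeks 2 and 4. On GRCm38 (GENCODE), Il1r2 lies at chr1:40074079-40125231, Il1b at chr2:129364570-129371139, Il1a at chr2:129299610-129309972, Il1rn at chr2:24336853-24351494 and Il1rap at chr16:26581704-26730117. Nlrp3 lies at chr11:59541568-59566956, Pycard at chr7:127989708-127993867, Casp1 at chr9:5298517-5307265, Gsdmd at chr15:75862327-75867408 and Il18 at chr9:50554827-50581840. Il1b, Il1a and Pycard are on the minus strand and the others on the plus strand. Exons of Il1b, Il1a, Il1rap and Pycard overlap those of the genes Il1bos, Gm14023, Gm20319 and Gm45205 in GENCODE. The sources used here do not say whether counting used the strand, so reads of these overlaps cannot be assigned with certainty.

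With both arms and both doses averaged, 5 of the 10 members rose and none fell at week 2 against week 0, at an adjusted p under 0.05 (edgeR's quasi-likelihood test with Benjamini-Hochberg adjustment, used for every adjusted p in the text). The members that rose were the cytokine genes Il1b and Il1a, the antagonist Il1rn, the decoy receptor Il1r2 and the sensor Nlrp3. Il1a had counts in 1 of 12 week 0 libraries and passed the filter on low counts through later libraries, so its call is not independent of that filter. Over all genes tested, 16% changed in this comparison, 8.72% higher and 7.24% lower. Because the members were chosen with earlier results of these data known, such shares are a description and do not test an excess among the members. The median log2 fold change was 1.07 over the members and -0.03 over all tested genes. At week 4 against week 0, 5 members rose and none fell, with Il1rap in place of Il1a, beside 6.16% of all tested genes that changed, 4.23% higher and 1.92% lower. The median was 1.31 over the members and -0.04 over all tested genes. Pycard, Casp1, Gsdmd and Il18 did not pass the threshold in either comparison.

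**Figure D1:**
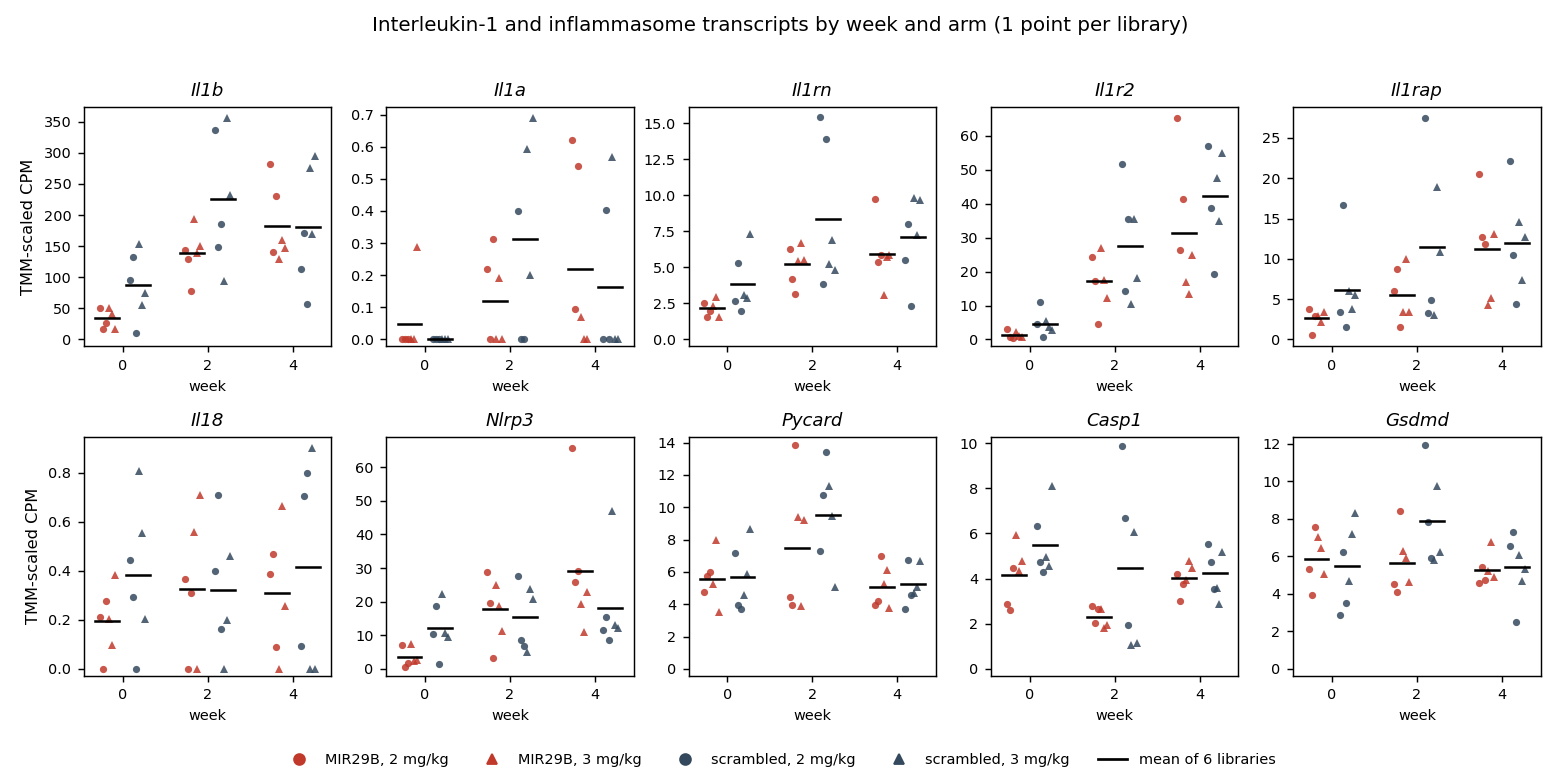
TMM-scaled CPM of each member (vertical axis, linear, a separate scale per panel) by week, with MIR29B libraries left of scrambled ones, circles for 2 mg/kg, triangles for 3 mg/kg and a bar at the mean of 6 libraries. Il1r2 at week 4 lay above every week 0 library in all 12 libraries, while Pycard, Casp1 and Gsdmd overlapped week 0.

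Il1b encodes interleukin-1 beta, the main secreted product of the NLRP3 inflammasome. In the MIR29B arm its lowest, median and highest levels were 16.5, 33.62 and 51.26 CPM at week 0, 77.58, 141.3 and 193.4 CPM at week 2, and 129.2, 153.9 and 281.5 CPM at week 4. Scrambled libraries had 11.07, 85.11 and 152.9 CPM at week 0, 94.46, 209 and 356.3 CPM at week 2, and 57.31, 170.6 and 295.6 CPM at week 4. All 12 later libraries of the MIR29B arm lay above all 6 of its week 0 libraries, whereas the scrambled arm overlapped, with 4 of 6 libraries above the week 0 maximum at each later week. Averaged over arms, the mean was 60.35 CPM at week 0, 182.3 CPM at week 2 and 181 CPM at week 4. The log2 fold change was 1.70 ± 0.29 (SE; adjusted p = 0.000188) at week 2 and 1.68 ± 0.29 (adjusted p = 0.000299) at week 4.

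Il1a encodes interleukin-1 alpha, which is active without cleavage by caspase-1. It was barely detected, with 108 counts in 14 of 36 libraries. In the MIR29B arm it had 6 counts in 1 of 6 libraries at week 0, 14 counts in 3 libraries at week 2 and 32 counts in 4 libraries at week 4. In the scrambled arm it had 0 counts at week 0, 36 counts in 4 libraries at week 2 and 20 counts in 2 libraries at week 4. The 0 allows up to 3 counts over the group, or 6 if each fragment was counted as 2, since every deposited count is even. Il1a passed the threshold at week 2 against week 0 (adjusted p = 0.0282) and not at week 4 against week 0 (adjusted p = 0.0896). The week 2 call was lost without replicate 1 of week 2 scrambled at 2 mg/kg, without replicate 2 of week 2 MIR29B at 3 mg/kg, with libraries blocked by arm, dose and replicate number (adjusted p = 0.0752) and without the 3 libraries rich in ribosomal RNA (adjusted p = 0.0612), and DESeq2 gave no adjusted p. The log2 fold change over all fits that left out 1 library ranged between 2.65 and 4.81. A fitted fold change on so few counts is a rough value. Il1a passed the filter on low counts through libraries of the later weeks, so its call is no separate support for a rise over week 0.

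Il1rn encodes the interleukin-1 receptor antagonist. Its lowest, median and highest levels in the MIR29B arm were 1.528, 2.133 and 2.972 CPM at week 0, 3.115, 5.474 and 6.684 CPM at week 2, and 3.101, 5.771 and 9.71 CPM at week 4. In the scrambled arm they were 1.981, 2.986 and 7.307 CPM at week 0, 3.83, 6.066 and 15.42 CPM at week 2, and 2.283, 7.597 and 9.817 CPM at week 4. The MIR29B libraries of weeks 2 and 4 all lay above those of week 0, and the scrambled ones overlapped. The log2 fold change was 1.15 ± 0.24 (adjusted p = 0.00142) at week 2 and 1.13 ± 0.24 (adjusted p = 0.00283) at week 4. The antagonist and the cytokine Il1b thus both rose, Il1b by 3.26-fold and Il1rn by 2.22-fold at week 2 and by 3.2-fold and 2.19-fold at week 4. The difference between those folds was not tested.

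Il1r2, the decoy receptor, had the largest change among the 9 members other than Il1a. In the MIR29B arm its lowest, median and highest levels were 0.4186, 0.8722 and 2.975 CPM at week 0, 4.673, 17.36 and 26.86 CPM at week 2, and 13.53, 25.52 and 65.25 CPM at week 4. Scrambled libraries had 0.5828, 4.042 and 10.92 CPM at week 0, 10.46, 26.76 and 51.62 CPM at week 2, and 19.41, 43.27 and 56.91 CPM at week 4. Every week 4 library lay above every week 0 library, and 10 of 12 week 2 libraries did. The log2 fold change was 3.09 ± 0.37 at week 2 (8.49-fold; adjusted p = 9.43e-07) and 3.78 ± 0.38 at week 4 (13.7-fold; adjusted p = 2.06e-08). It kept an adjusted p under 0.05 in both comparisons under every alternative and with each library left out.

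Il1rap, the accessory chain, had lowest, median and highest levels of 0.5238, 2.927 and 3.719 CPM at week 0, 1.558, 4.683 and 9.93 CPM at week 2, and 4.299, 12.27 and 20.51 CPM at week 4 in the MIR29B arm. In the scrambled arm the levels were 1.515, 4.624 and 16.68 CPM at week 0, 3.089, 7.853 and 27.49 CPM at week 2, and 4.453, 11.58 and 22.17 CPM at week 4. A single scrambled library at week 0, replicate 2 at 2 mg/kg, held the 16.68 CPM, and the next highest of that set had 6.048 CPM. The log2 fold change was 1.49 ± 0.39 at week 4 (adjusted p = 0.0176), and 0.99 ± 0.39 at week 2 (adjusted p = 0.0779), where it did not pass. The week 2 value passed in 3 of 24 fits that left out 1 library, those without replicate 2 of week 0 or of week 2 scrambled at 2 mg/kg, or without replicate 1 of week 2 scrambled at 3 mg/kg.

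Nlrp3, the sensor of the inflammasome, had lowest, median and highest levels of 0.5238, 2.439 and 7.546 CPM at week 0, 3.271, 19.13 and 28.83 CPM at week 2, and 11.14, 24.43 and 65.8 CPM at week 4 in the MIR29B arm. Scrambled libraries had 1.632, 10.58 and 22.17 CPM at week 0, 4.991, 14.59 and 27.72 CPM at week 2, and 8.677, 12.67 and 47.01 CPM at week 4. The MIR29B libraries of week 4 did not overlap those of week 0, while in the scrambled arm 2 of 6 libraries at week 2 and 1 of 6 at week 4 exceeded the week 0 maximum. With arms averaged, the log2 fold change was 1.32 ± 0.39 at week 2 (adjusted p = 0.0193) and 1.69 ± 0.39 at week 4 (adjusted p = 0.00678).

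The members that assemble and execute the inflammasome below its sensor did not pass in either comparison. Pycard, the adaptor, averaged 5.604 ± 1.645 CPM at week 0, 8.508 ± 3.564 CPM at week 2 and 5.154 ± 1.207 CPM at week 4 (SD, n = 12 each), with a log2 fold change of 0.59 ± 0.22 at week 2 against week 0 (adjusted p = 0.0663) and -0.12 ± 0.22 at week 4 against week 0 (adjusted p = 0.834). Casp1, the protease, averaged 4.828 ± 1.468 CPM at week 0, 3.387 ± 2.692 CPM at week 2 and 4.134 ± 0.827 CPM at week 4, with -0.60 ± 0.24 at week 2 (adjusted p = 0.0867) and -0.20 ± 0.24 at week 4 (adjusted p = 0.707). The 6 MIR29B libraries of week 2 lay between 1.814 and 2.781 CPM of Casp1, and the 6 scrambled ones spread between 1.069 and 9.846 CPM. Pycard passed at week 2 in 8 of the 24 fits that left out 1 library. These left out replicate 2 of week 0 MIR29B at 3 mg/kg, replicate 1 at 2 mg/kg or replicate 3 at 3 mg/kg of week 0 scrambled, replicate 1 or 2 at 2 mg/kg or replicate 2 at 3 mg/kg of week 2 MIR29B, and replicate 1 at 2 mg/kg or replicate 3 at 3 mg/kg of week 2 scrambled. Casp1 passed in 2, without replicate 1 at 2 mg/kg or replicate 2 at 3 mg/kg of week 2 scrambled, and with DESeq2. Gsdmd, the pore former, averaged 5.672 ± 1.718, 6.771 ± 2.309 and 5.34 ± 1.254 CPM at weeks 0, 2 and 4, and its log2 fold change at week 2 was 0.25 ± 0.19 (adjusted p = 0.397). Il18, the other substrate of caspase-1, had 66, 66 and 78 counts over the 12 libraries of weeks 0, 2 and 4, and a change was not detectable at this depth.

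Between the later weeks, week 4 against week 2, none of the 10 members passed with edgeR, 2 had an unadjusted p under 0.05 (as did 18.3% of all tested genes), and DESeq2 called 1, Pycard. Over all tested genes 1.05% passed, 0.678% higher and 0.368% lower. Il1r2 differed by a log2 fold change of 0.69 ± 0.33 (adjusted p = 0.264) and Pycard by -0.71 ± 0.22 (adjusted p = 0.0946). Pycard passed without replicate 2 of week 2 MIR29B at 3 mg/kg and without replicate 1 of week 2 scrambled at 2 mg/kg.

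Taken within each arm, the change since week 0 was called for more members in MIR29B mice than in scrambled mice, and the difference itself did not pass. At week 2 against week 0, 4 members rose in the MIR29B arm, where 5.44% of all tested genes changed (3.45% higher, 1.99% lower), and 1 rose in the scrambled arm, where 3.21% did (2.11% higher, 1.1% lower). At that week DESeq2 called 4 members in the MIR29B arm and 3 in the scrambled arm, and edgeR without the filter on low counts called 5 and 3. With a library left out, 293 to 681 genes were called in the MIR29B arm and 42 to 950 in the scrambled arm. At week 4 against week 0, 5 members rose in the MIR29B arm, where 3.09% of all tested genes changed (2.64% higher, 0.443% lower), and 1 rose in the scrambled arm, where 0.46% did (0.36% higher, 0.1% lower). The member that rose in both arms at both weeks was Il1r2, with log2 fold changes of 3.62 ± 0.54 in the MIR29B arm and 2.55 ± 0.50 in the scrambled arm at week 2, and 4.36 ± 0.55 in the MIR29B arm and 3.19 ± 0.51 in the scrambled arm at week 4. Nlrp3 had log2 fold changes of 2.28 ± 0.57 in the MIR29B arm (adjusted p = 0.0154) and 0.35 ± 0.54 in the scrambled arm (adjusted p = 0.749) at week 2. At week 4 its values were 2.88 ± 0.58 in the MIR29B arm (adjusted p = 0.00261) and 0.49 ± 0.54 in the scrambled arm (adjusted p = 0.82).

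Il1b had log2 fold changes of 2.03 ± 0.42 in the MIR29B arm (adjusted p = 0.00372) and 1.38 ± 0.41 in the scrambled arm (adjusted p = 0.0557) at week 2, and 2.40 ± 0.43 in the MIR29B arm (adjusted p = 0.000538) and 0.95 ± 0.41 in the scrambled arm (adjusted p = 0.43) at week 4. Il1rn was called in the MIR29B arm at week 2 (1.26 ± 0.35, adjusted p = 0.0268) and week 4 (1.43 ± 0.35, adjusted p = 0.0146), with 1.04 ± 0.34 and 0.83 ± 0.34 in the scrambled arm at those weeks. Il1rap was called in the MIR29B arm at week 4 (2.01 ± 0.57, adjusted p = 0.0423), against 0.98 ± 0.55 in the scrambled arm. Several of these calls were lost when single libraries were left out. Il1rap lost its week 4 call in 9 of 12 fits that left out 1 MIR29B library, and kept it without replicate 1 of week 0 at 2 mg/kg and without replicate 1 or 2 of week 4 at 3 mg/kg. Il1rn lost its week 2 call in 5 of 12, without replicate 2 or 3 at 2 mg/kg or replicate 1 or 3 at 3 mg/kg of week 0 and without replicate 1 of week 2 at 2 mg/kg. That call was also lost without the 3 libraries rich in ribosomal RNA (adjusted p = 0.0546). It lost its week 4 call without replicate 3 of week 0 at 3 mg/kg and without replicate 1 of week 4 at 2 mg/kg. Nlrp3 lost its week 2 call without replicate 3 of week 0 at 2 mg/kg and without replicate 3 of week 0 at 3 mg/kg. In the scrambled arm at week 2 the number of members called was 1 to 3 when single libraries were left out, with Il1b or Il1rn added without replicate 2 at 2 mg/kg or replicate 3 at 3 mg/kg of week 0, and without replicate 2 at 2 mg/kg or replicate 1 at 3 mg/kg of week 2.

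The difference between arms in the change since week 0 was tested as an interaction, and with edgeR and the filter on low counts 0 members and 0% of all tested genes passed at week 2 and at week 4. DESeq2 called 0 members in either. Without that filter edgeR called Nlrp3 at both weeks, among 63 genes at the earlier and 72 at the later one. An unadjusted p under 0.05 was found for 1 member at week 2 and 2 at week 4, beside 5.61% and 6.03% of all tested genes. Nlrp3 had an interaction of 1.93 ± 0.78 on the log2 scale at week 2 (adjusted p = 0.859) and 2.38 ± 0.78 at week 4 (unadjusted p = 0.00434, adjusted p = 0.78). Il1b had 1.45 ± 0.58 at week 4 (adjusted p = 0.78).

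**Figure D2:**
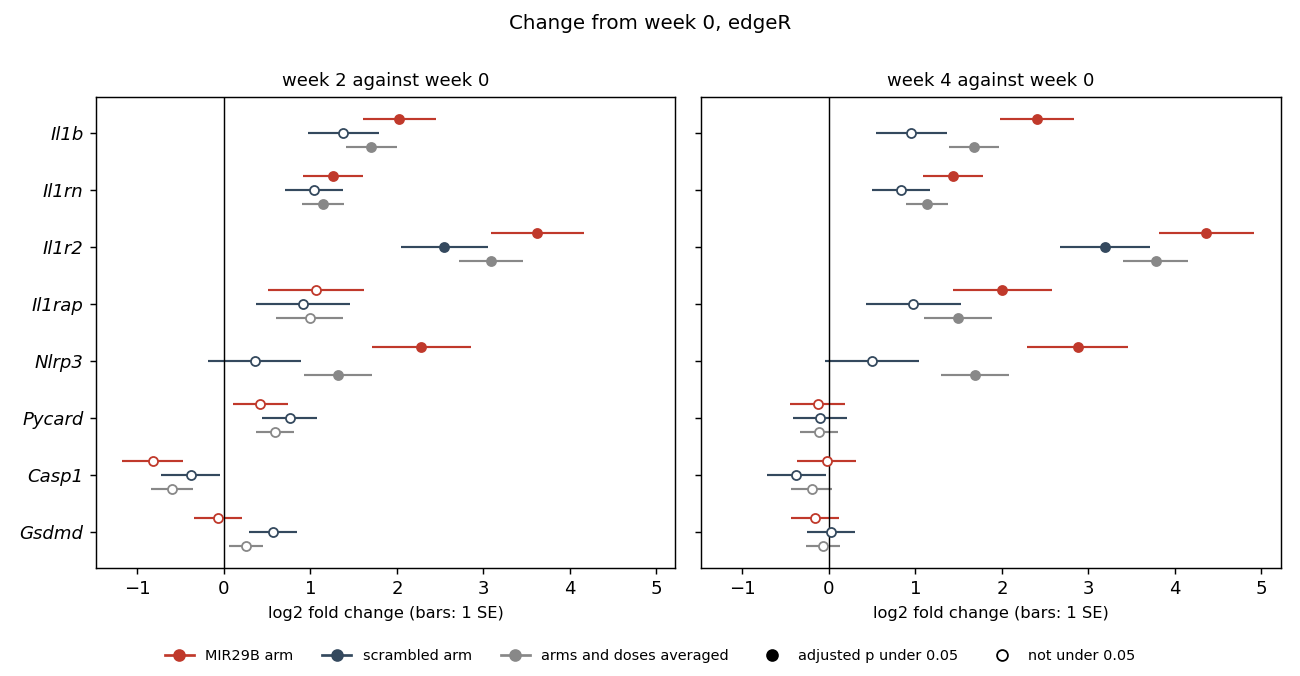
Log2 fold change with 1 SE (horizontal axis) against week 0 for 8 members, at week 2 on the left and week 4 on the right, in the MIR29B arm, the scrambled arm and both averaged; filled points have an adjusted p under 0.05. Il1r2 is filled in all 6 rows, and Nlrp3 lies at 2.88 in the MIR29B arm and 0.49 in the scrambled arm at week 4.

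Set side by side at each week, MIR29B and scrambled libraries gave no call with edgeR and the filter on low counts: 0 of 10 members and 0% of all tested genes passed at weeks 0, 2 and 4. At an unadjusted p under 0.05 there were 5 members at week 0, 1 at week 2 and 0 at week 4, beside 7.13%, 9.83% and 2.64% of all tested genes. DESeq2 called 0 members at each week, and 19 and 78 genes in all at weeks 0 and 2. Without the filter on low counts, edgeR called 3 members at week 0, Il1b, Il1r2 and Nlrp3, among 163 genes. The 5 at week 0 were all lower in the MIR29B arm. Il1b had a mean of 33.7 CPM in MIR29B and 87 CPM in scrambled libraries at week 0, a log2 fold change of -1.37 ± 0.41 (adjusted p = 0.512). Il1r2 had 1.342 CPM in MIR29B and 4.635 CPM in scrambled libraries (-1.73 ± 0.51, adjusted p = 0.511), and Nlrp3 had 3.606 CPM in MIR29B and 12.19 CPM in scrambled libraries (-1.72 ± 0.56, adjusted p = 0.535). The interactions above take week 0 as their base, so each holds the week 0 difference between the arms. The summed level of neutrophil markers at week 0 was 293.6 to 726.8 CPM (mean 474.5) in MIR29B and 319.7 to 1481 CPM (mean 894.5) in scrambled libraries, and their part in the differences was not tested. At week 4 the same genes had -0.56 ± 0.47 (Il1r2) and 0.66 ± 0.54 (Nlrp3), and Il1b had means of 181.6 CPM in MIR29B and 180.4 CPM in scrambled libraries.

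Il1rap, the member that holds the seed match, had means of 2.607 ± 1.159 CPM in MIR29B and 6.154 ± 5.402 CPM in scrambled libraries at week 0 (SD, n = 6 each), 5.5 ± 3.328 CPM in MIR29B and 11.41 ± 9.931 CPM in scrambled libraries at week 2, and 11.28 ± 5.949 CPM in MIR29B and 11.96 ± 6.177 CPM in scrambled libraries at week 4. The arms overlapped at every week. The log2 fold change of MIR29B against scrambled was -1.20 ± 0.56 at week 0 (adjusted p = 0.696), -1.05 ± 0.55 at week 2 (adjusted p = 0.545) and -0.17 ± 0.54 at week 4 (unadjusted p = 0.756).

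The dose of 3 mg/kg was set against 2 mg/kg as a difference between doses in the MIR29B effect. With edgeR 0 members and 0% of all tested genes passed at week 2 and at week 4, DESeq2 called 0 members, and the unadjusted p was under 0.05 for 0 members at week 2 and 1 at week 4, beside 5.76% and 3.43% of all tested genes. That member was Il1b at week 4 (unadjusted p = 0.0449), with means of 145.7 ± 15.8 CPM in MIR29B and 247.1 ± 67.6 CPM in scrambled libraries at 3 mg/kg, and 217.5 ± 71.8 CPM in MIR29B and 113.8 ± 57.0 CPM in scrambled libraries at 2 mg/kg (SD, n = 3 each). MIR29B was lower than scrambled at the higher dose and higher than scrambled at the lower dose.

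Markers of neutrophils were also higher at the later weeks than at week 0. The summed level of 22 neutrophil marker genes was 293.6 to 1481 CPM at week 0 (mean 684.5), 934.3 to 3495 CPM at week 2 (mean 1770) and 587.3 to 1961 CPM at week 4 (mean 1238). Within the MIR29B arm all 6 libraries of week 2 and all 6 of week 4 lay above the week 0 maximum, and within the scrambled arm 4 of 6 and 2 of 6 did. Of the 19 markers tested, 12 (63.2%) rose at week 2 against week 0 and 4 (21.1%) at week 4 against week 0, beside 8.72% and 4.23% of all tested genes. At week 4 against week 2 the median log2 fold change was -0.49 over these markers and 0.09 over the members. The granule genes Mpo, Elane and Ctsg, defining markers of neutrophil precursors, were too low to test. The summed level of 18 monocyte and macrophage markers was 205.1 to 625.2 CPM at week 0, 251.7 to 1172 CPM at week 2 and 337.8 to 760.1 CPM at week 4, with 2 (11.1%) and 4 (22.2%) of 18 tested markers higher at weeks 2 and 4. Of 8 NK cell markers, 5 (62.5%) fell at week 2 and 0 at week 4, beside 7.24% and 1.92% of all tested genes.

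The members were therefore also expressed as a percentage of the neutrophil marker sum of the same library, a description for which no test was made. The mean of that sum was 2.59-fold at week 2 and 1.81-fold at week 4 of its week 0 value. A transcript of unchanged CPM thus falls relative to it, which bears on the lower percentages of Casp1, Pycard and Gsdmd below. Their mean CPM was not constant from week 0 to week 2. Casp1 went from 4.828 to 3.387 CPM, Pycard from 5.604 to 8.508 CPM and Gsdmd from 5.672 to 6.771 CPM. The part of the larger sum in the lower percentages was not tested. Il1r2 amounted to 0.393% ± 0.264 of that sum at week 0, 1.34% ± 0.65 at week 2 and 2.91% ± 0.73 at week 4 (SD, n = 12 each). All 12 week 4 libraries, at 1.256% or more, lay above the week 0 maximum of 0.944%, so Il1r2 was higher at week 4 than at week 0 relative to the neutrophil markers too. Il1b amounted to 8.5% ± 4.15, 11.2% ± 4.12 and 14.8% ± 4.14 at weeks 0, 2 and 4, with 3 of 12 week 4 libraries above the week 0 maximum. Within the MIR29B arm Il1b averaged 7.57%, 11.3% and 16.5%, with 3 of 6 libraries at week 2 and 6 of 6 at week 4 above the week 0 maximum of that arm. Within the scrambled arm it averaged 9.43%, 11.05% and 13.2%, with 1 of 6 above at each later week. Il1rn amounted to 0.464% ± 0.127, 0.402% ± 0.145 and 0.526% ± 0.123, overlapping throughout. Casp1 amounted to 0.852% ± 0.412, 0.219% ± 0.173 and 0.361% ± 0.114, with 10 of 12 week 2 libraries and 8 of 12 week 4 libraries below the week 0 minimum. Nlrp3 stood at 0.819%, 1.47% and 2.53% at weeks 0, 2 and 4 in the MIR29B arm and 1.34%, 0.776% and 1.42% in the scrambled arm. Its MIR29B libraries lay above the week 0 maximum of that arm in 3 of 6 at week 2 and 5 of 6 at week 4, and its scrambled ones in 0 of 6 and 1 of 6. Pycard averaged 0.983%, 0.559% and 0.461% and Gsdmd 1.04%, 0.446% and 0.459% at weeks 0, 2 and 4, with week 0 highest for both. Il1rap averaged 0.645%, 0.458% and 1.003% in the MIR29B arm, with 4 of 6 week 4 libraries above the week 0 maximum of that arm, and 0.653%, 0.525% and 0.844% in the scrambled arm. In the scrambled arm 0 of 6 exceeded the week 0 maximum of 1.442%, held by replicate 2 at 2 mg/kg. The part of cell composition in any of these values was not tested.

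**Figure D3:**
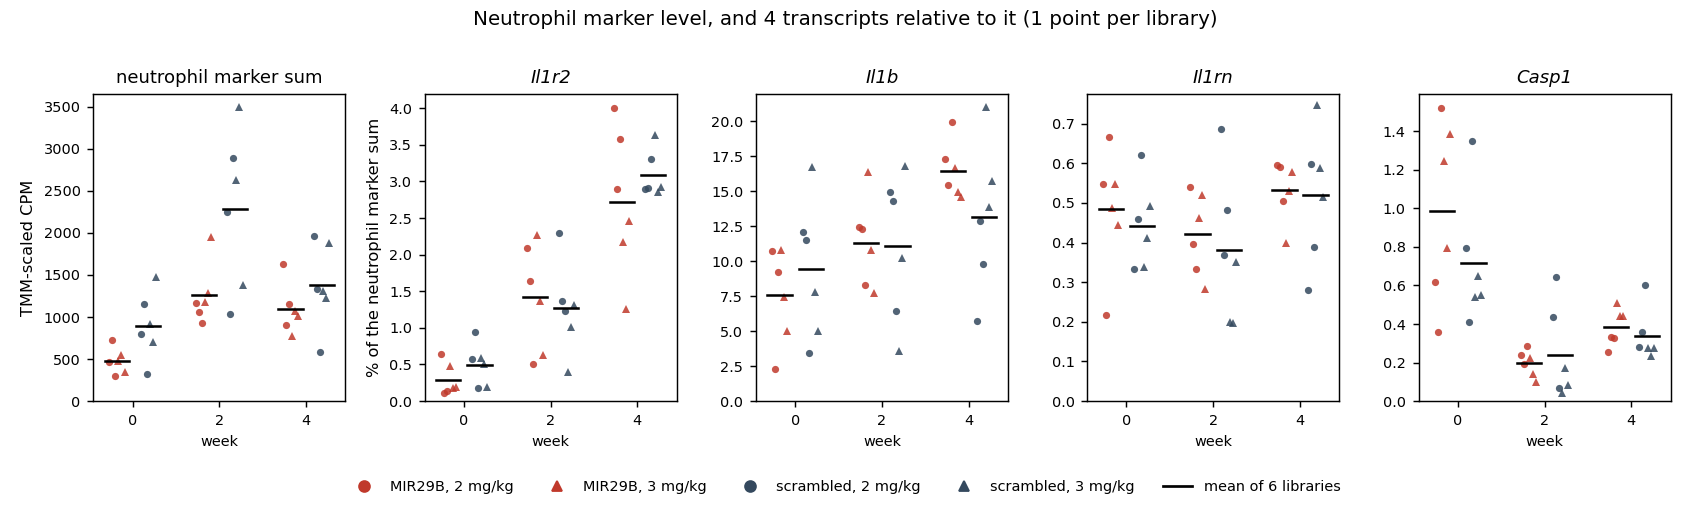
Left panel, summed TMM-scaled CPM of 22 neutrophil markers by week and arm; other panels, Il1r2, Il1b, Il1rn and Casp1 as a percentage of that sum (linear axes, 1 point per library, bar at the mean of 6). Il1r2 stands at 2.91% on average at week 4 and 0.393% at week 0, Il1rn averages between 0.402% and 0.526% at every week, and Casp1 is highest at week 0.

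Of 54 tested genes in 4 lists of other pathway genes, 12 (22.2%) passed at week 2 and 5 (9.26%) at week 4 against week 0, beside 16% and 6.16% of all tested genes. Among 6 tested genes of the remaining interleukin-1 family, at week 2 against week 0 the interleukin-18 binding protein gene Il18bp rose (1.11 ± 0.39, adjusted p = 0.047) and the interleukin-18 receptor gene Il18r1 fell (-1.35 ± 0.37, adjusted p = 0.0122), and 0 passed at week 4 against week 0 with edgeR, where 1 had an unadjusted p under 0.05. Of 18 receptor signalling genes, 3 passed at week 2: the adaptor Myd88 rose (0.9998 ± 0.2457, adjusted p = 0.0055), the inhibitor Tollip rose (0.61 ± 0.20, adjusted p = 0.0367) and the kinase-binding Tab3 fell (-0.93 ± 0.24, adjusted p = 0.00833). At week 4, 1 of the 18 passed, the kinase gene Irak2 (0.81 ± 0.21, adjusted p = 0.0182). Both counts are near the share of all tested genes. The median log2 fold change of these 18 genes was -0.12 at week 2 and 0.05 at week 4.

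Of 21 tested sensors and assembly factors, Nlrx1 (0.83 ± 0.26) and Pstpip1 (0.78 ± 0.19), which encodes a partner of the sensor pyrin, rose at week 2. The DNA sensor Aim2 fell (-0.68 ± 0.23, adjusted p = 0.0396). These were 9.52% higher and 4.76% lower, beside 8.72% and 7.24% of all tested genes. At week 4 the pyrin gene Mefv rose (1.54 ± 0.48, adjusted p = 0.0461), 1 of 21 (4.76%), beside 4.23% of all tested genes. The counts of this list are near the share of all tested genes. Of 9 tested caspases, gasdermins and release factors, 3 (33.3%) rose and 1 (11.1%) fell at week 2, beside 8.72% and 7.24% of all tested genes. Ninj1, which ruptures the membrane of dying cells, rose by 1.11 ± 0.17 (adjusted p = 3.12e-05). Gsdme, another pore former, rose by 1.15 ± 0.37 and Chmp4b, of membrane repair, by 0.50 ± 0.17. The caspase gene Casp8 fell by 0.84 on the log2 scale. At week 4, Ninj1 rose by 1.23 ± 0.17 (adjusted p = 4.77e-06) and the deacetylase gene Sirt2 by 0.64 ± 0.17. Serpinb1a, an inhibitor of neutrophil proteases, fell (-0.71 ± 0.21, adjusted p = 0.0381). These were 22.2% higher and 11.1% lower, beside 4.23% and 1.92% of all tested genes. The lists were chosen with earlier results known, so these shares are a description only. Ninj1 was the gene of these 4 lists that rose at both weeks.

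Across the 36 libraries Il1b, Il1rn, Il1r2, Il1rap and Nlrp3 varied together. On the log2(CPM + 0.5) scale, Pearson's r was 0.90 between Il1b and Il1r2, 0.85 between Il1b and Nlrp3 and 0.83 between Il1b and Il1rn, and 0.85, 0.80 and 0.58 after the 12 group means were taken out. Il1a, with only 108 counts in all, had an r of 0.36 with Il1b and 0.07 after the group means were taken out. Pycard and Casp1 had r of 0.20 and -0.01 with Il1b, and -0.0076 and 0.39 after the group means were taken out. These values describe libraries that share depth and cell composition, and no p is attached to them.

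**Figure D4:**
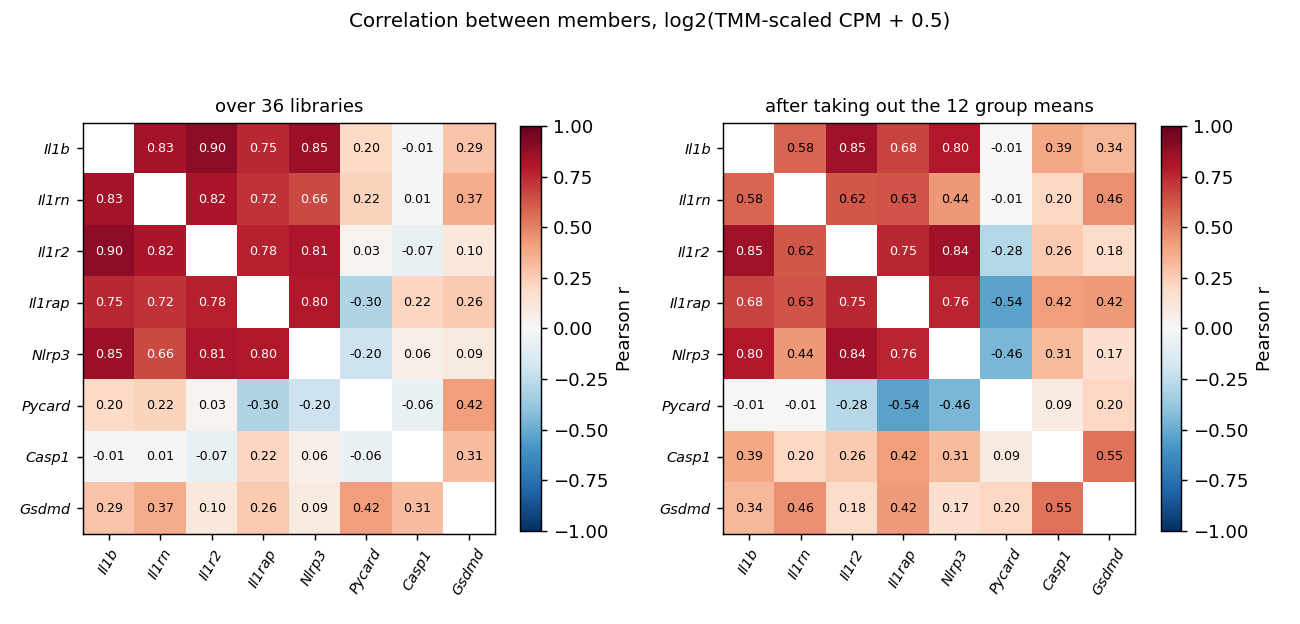
Pearson's r between 8 members on the log2(TMM-scaled CPM + 0.5) scale, over 36 libraries on the left and after taking out the 12 group means on the right (colour scale -1 to 1). On the left, Il1b, Il1rn, Il1r2, Il1rap and Nlrp3 form a block of high r (0.90 for Il1b with Il1r2), and Pycard, Casp1 and Gsdmd stand outside it. On the right the split is less clear, with 0.44 for Il1rn with Nlrp3, 0.46 for Il1rn with Gsdmd and 0.42 for Il1rap with Casp1.

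The genes whose pattern over 36 libraries was most like each member were also listed, by Pearson's r on the same scale. For Il1r2 they were Trem1 (0.97), a receptor that amplifies inflammation in myeloid cells, Ets2 (0.96) and Lmnb1 (0.95). For Il1b they were the pattern recognition genes Tlr2 (0.95), Clec4e (0.93) and Cd14 (0.92). For Nlrp3 they were the nicotinic acid receptor gene Hcar2 (0.92), Nfkbiz (0.92), which encodes a nuclear regulator of NF-kappa-B, and the histone demethylase gene Kdm6b (0.91). For Il1rn they were Lpcat2 (0.89), Hdc (0.87), the histamine-forming enzyme, and Cd44 (0.87), and for Il1rap Retreg1 (0.93), Tlr13 (0.90) and Cpd (0.90). Pycard was most like Cd52 (0.86), Arhgdib (0.86) and Pfn1 (0.84), and Casp1 most like Rp2 (0.82), Hps3 (0.82) and Dram2 (0.81). For Gsdmd, Il1a and Il18 no gene exceeded 0.664.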

How the data were processed

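The authors deposited raw counts of reads per RefSeq transcript for 36 libraries. Per the submitters' processing notes, HISAT2 2.0.5, featureCounts 1.5.0-p3 and the build GRCm38 were used, with no further settings given in the sources used here. Per the labels' protocols, RNA was isolated with TRIzol and depleted of globin mRNA. All deposited counts are even, which is not explained in the sources used here.

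Of 25856 rows, 74 had no symbol and were kept under their transcript names, and the row with the highest total was kept per gene (16812 genes, these rows included). The rows without a symbol also count toward the share called ribosomal RNA. Genes were filtered with filterByExpr (minimum count 10, minimum total 15), scaled by TMM and fitted with edgeR 4.0.16 in R 4.3.3 over the 12 groups (24 residual degrees of freedom, biological coefficient of variation 0.5). Contrasts averaged groups, SE is the absolute log2 fold change over the root of F, and p-values were adjusted by Benjamini-Hochberg over 11953 genes per comparison at 0.05. The fit was tested on simulated data. Total counts of 10695984 to 45654822 limit precision for low genes. A floor of 3 counts covers counting error only.

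The members and gene lists were chosen with earlier results of these data known. Named genes are the 10 members, at most 3 called genes per direction of each pathway list, and the 3 genes most like each member. Alternatives were RLE scaling, DESeq2 1.42.0, no filter, replicate blocks, leaving out libraries over 5% ribosomal RNA or each library in turn, other pseudocounts (0.1 and 2), and, chosen after seeing the data, counts divided by 2. Transcript lengths came from GENCODE M21, counting only bases within the RefSeq bounds of each gene. The 3′ untranslated regions came from GENCODE M21, and promoters and microRNAs from RefSeq.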

Additional observations from a re-analysis of the deposited data

Results flagged for a closer look

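In 59 sets of 6 libraries of 1 week and arm, with 1 member each, the highest or lowest library was compared with its neighbour relative to the range of the set, and 4 sets had a library that stood apart (beyond Dixon's 95% critical value). Chance flags about 1 in 20 such sets. Nlrp3 was 65.8 CPM in replicate 1 of week 4 MIR29B at 2 mg/kg, where the next library had 29.02 CPM, and 47.01 CPM in replicate 1 of week 4 scrambled at 3 mg/kg, where the next had 15.55 CPM. Il1rap was 16.68 CPM in replicate 2 of week 0 scrambled at 2 mg/kg, where the next had 6.048 CPM. Il1a was 0.2864 CPM, on 6 counts, in replicate 3 of week 0 MIR29B at 3 mg/kg, and 0 in the other libraries of that set.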

How the results depend on the processing

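The rises of Il1b, Il1r2, Il1rn and Nlrp3 at weeks 2 and 4 against week 0, and of Il1rap at week 4, with arms averaged, kept their direction and call under all alternatives and with each library left out. Il1a lost its week 2 call under the replicate block by arm, dose and number (adjusted p = 0.0752), without the libraries rich in ribosomal RNA and in 2 fits with a library left out, and had no adjusted p with DESeq2 and was not tested with counts divided by 2, which was chosen after seeing the data. Members called in week 4 against week 2 were 1 with DESeq2 (Pycard) and 1 with no filter (Il1r2). In the scrambled arm at week 2, members called were 3 with DESeq2, 3 with no filter, 2 with counts divided by 2 and 2 with the replicate block by replicate number. With no filter, 1 member (Nlrp3) was called in the arm difference at week 2, 1 (Nlrp3) at week 4, and 3 (Il1b, Il1r2, Nlrp3) in MIR29B against scrambled at week 0. The cause was not tested. With a library left out, members called ranged from 0 to 1 in week 4 against week 2, from 2 to 4 and 3 to 5 in the MIR29B arm at weeks 2 and 4, and from 1 to 3 in the scrambled arm at week 2.

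Of the log2 fold changes reported, Nlrp3 in the scrambled arm at week 2 against week 0 ranged from -0.12 to 0.72 with a library left out, below 0 without replicate 1 of week 2 at 2 mg/kg. Il1rap in MIR29B against scrambled at week 4 ranged from -0.49 to 0.19, above 0 without replicate 1 of scrambled at 2 mg/kg.

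The number of genes called moved by over 1.5 times in several comparisons. With DESeq2 it was 1112 in place of 736 in week 4 against week 0, 625 in place of 125 in week 4 against week 2, 1128 in place of 650 and 782 in place of 369 in the MIR29B arm at weeks 2 and 4, 1019 in place of 384 and 144 in place of 55 in the scrambled arm at those weeks, and 19 and 78 in place of 0 in MIR29B against scrambled at weeks 0 and 2. With no filter it was 716 in week 4 against week 2, 735 in the MIR29B arm at week 4, 902 and 139 in the scrambled arm at weeks 2 and 4, 63 and 72 in the arm differences, 163, 93 and 3 in MIR29B against scrambled at weeks 0, 2 and 4, and 20 and 5 in the dose differences. Without the libraries rich in ribosomal RNA it was 916 in place of 1907 in week 2 against week 0, 164 and 144 in the MIR29B and scrambled arms at week 2, 36 in the scrambled arm at week 4 and 0 in week 4 against week 2, and with counts divided by 2 it was 213 in the last. With a library left out it ranged from 1482 to 2508, 523 to 772 and 20 to 645 in the 3 averaged week comparisons, 293 to 681 and 196 to 535 in the MIR29B arm and 42 to 950 and 28 to 65 in the scrambled arm at weeks 2 and 4, 0 to 15 and 0 to 11 between arms at weeks 0 and 2, and 0 to 3 in the dose difference at week 2.

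The labels do not say what a replicate number marks. Between arms, deviations of same-numbered libraries had a median correlation of 0.0969 (over 0.1 in 9 of 18 pairs) and those of other pairs -0.0467 (12 of 36). Between weeks these were 0.076 (16 of 36) and -0.054 (26 of 72), so not every same-numbered pair exceeded 0.1. In 4 of 12 sets that share arm, dose and number over the weeks, libraries of both sexes occurred by Xist and Ddx3y, so such a set is not 1 animal. The replicate block by arm, dose and number gave 23 genes in week 4 against week 2 and 109 in the scrambled arm at week 2, and Il1rap in the MIR29B arm at week 4 had an adjusted p of 0.0626 under it. The block by replicate number gave 1 gene in MIR29B against scrambled at week 0 and 1 at week 2.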
